A study of Mus musculus with 42 samples.

Results

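The PYHIN genes are interferon-inducible genes whose products carry a pyrin domain, a HIN domain that binds DNA, or both. Of the 26811 genes in the table of counts, 10 were followed here by name: Aim2, Ifi203, Ifi204, Ifi205, Ifi206, Ifi207, Ifi208, Ifi209, Ifi211 and Ifi213. All 10 passed the filter on low counts. The list was chosen by family name with results of these tumors in view, in which Ifi206 stood among the genes higher in aPD1 than in isotype tumors. That contrast, for which no other selecting value is known, is described without a test.

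AIM2 recognizes double-stranded DNA in the cytosol through its HIN domain and recruits the adaptor ASC, encoded by Pycard, through its pyrin domain, which leads to activation of caspase-1. The protein encoded by Ifi204 also senses cytosolic DNA and signals through STING. Other members are found in the nucleus and take part in transcription and differentiation of myeloid cells, and for several of them the role is little known. Macrophages, dendritic cells and lymphocytes are the main sources of these transcripts, and type I and type II interferons raise them.

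The data are poly(A) RNA-seq counts from 42 bulk tumors of MC38, a colon carcinoma line of C57BL/6J origin, grown under the skin of female CC075/UncJ x C57BL/6J F1 mice aged 8 to 12 weeks. All mice received the same number of cells. Isotype tumors (n = 5) came from mice given isotype controls, and aPD1 tumors (n = 6) from mice given 200 µg of PD-1 antibody together with isotype controls of the blocking antibodies. The aPD1 + aGMCSF group (n = 9) also received 100 µg of an antibody against GM-CSF, a cytokine that acts on myeloid cells. The aPD1 + aIL2RB group (n = 11) received 200 µg of an antibody against CD122, the receptor subunit shared by the receptors for interleukins 2 and 15 on T and NK cells, and the aPD1 + aGMCSF + aIL2RB group (n = 11) received both. The blocking antibodies were given every 3 days from engraftment, the PD-1 antibody once at 75 to 110 mm3, and tumors were taken 48 h later. The labels call the tumors of a group biological replicates, and all comparisons are over tumors.

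Libraries held 15109227 to 24101674 counts, apart from aPD1 + aGMCSF + aIL2RB replicate 4 with 7155486. Expression is given as counts per 1000000 (CPM), scaled between tumors by the trimmed mean of M-values. Keratins and other epithelial markers were low, summing over 5 genes to 0 to 21.9 CPM, whereas macrophage genes summed to 1891 to 6007 CPM. These sums do not measure the share of MC38 cells in a tumor. In bulk tumors, fewer cells of a type and less RNA per cell cannot be told apart, and this holds for every value below. The tumors also parted along their replicate numbers, which no label explains. The first principal component of the residuals from the group means held 18.5% of the variance and ordered a share of 0.939 of all pairs of a lower-numbered and a higher-numbered tumor. Results were therefore also computed within each set of numbers. The lower numbers were replicates 1 to 2 of isotype, 1 to 3 of aPD1, 1 to 5 of aPD1 + aGMCSF and 1 to 6 of aPD1 + aIL2RB and of aPD1 + aGMCSF + aIL2RB. The higher numbers held the other 3, 3, 4, 5 and 5 tumors. These sets were drawn with earlier results of these tumors known.

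In the GENCODE annotation of GRCm38 the 10 genes lie in a cluster on chromosome 1, between 173350879 and 174031810, a stretch of 0.681 Mb. Aim2 (173350879 to 173466040, plus strand) is at the proximal end. It is followed by Ifi206 (173468485 to 173491041, minus), Ifi213 (173566283 to 173599274, minus), Ifi209 (173630917 to 173647928, plus) and Ifi208 (173673675 to 173698395, plus). Farther on are Ifi207 (173723427 to 173741747, minus), Ifi204 (173747293 to 173766943, minus), Ifi211 (173896345 to 173913046, minus), Ifi203 (173920407 to 173942672, minus) and Ifi205 (174011998 to 174031810, minus). The related genes Ifi214, Mndal and Ifi202b and the pseudogenes Ifi203-ps, Gm18752, Gm7871 and Gm18445 lie between them, and Mndal overlaps both Ifi211 and Ifi203.

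The 250 bases before the start of transcription were read from RefSeq (GRCm38.p6) for the 9 members with an entry, which leaves out Ifi204. They were searched on both strands for GAAA followed by any 2 bases and a second GAAA, the core of the interferon-stimulated response element bound by interferon regulatory factors. It was found in 7 of 9 members, beside 2.98% of 32851 promoters of the same length. Matches began 40 bases before the start in Ifi206, 41 in Ifi207, 58 in Ifi208, 73 in Ifi213, 37 in Ifi211, 134 in Ifi205 and 35 at the second of the starts given for Ifi203. Ifi209 and Aim2 had no match. Such a match is a description of letters and not a site, and these promoters are copies of related sequence: Ifi208 and Ifi213 were 87.9% identical, Ifi207 and Ifi211 85.0%, and Ifi206 and Ifi209 45.4%.

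The sequences of 5 promoters are shown because these genes span the range of responses described below, from Ifi206 and Ifi213 with the largest differences, through Ifi209 and Ifi207, to Aim2 with the smallest. Capitals mark the match to the response element, and exonic bases were left off. Positions are chr1:173491319-173491568 (minus strand) for Ifi206, chr1:173599275-173599522 (minus) for Ifi213, chr1:173741810-173742059 (minus) for Ifi207, chr1:173630609-173630858 (plus) for Ifi209 and chr1:173420354-173420570 (plus) for Aim2.
Ifi206: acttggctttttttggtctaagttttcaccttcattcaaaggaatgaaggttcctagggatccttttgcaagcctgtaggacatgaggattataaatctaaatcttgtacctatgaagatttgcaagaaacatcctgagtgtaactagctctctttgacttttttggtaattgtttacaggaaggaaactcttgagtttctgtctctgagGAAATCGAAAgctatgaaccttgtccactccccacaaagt
Ifi213: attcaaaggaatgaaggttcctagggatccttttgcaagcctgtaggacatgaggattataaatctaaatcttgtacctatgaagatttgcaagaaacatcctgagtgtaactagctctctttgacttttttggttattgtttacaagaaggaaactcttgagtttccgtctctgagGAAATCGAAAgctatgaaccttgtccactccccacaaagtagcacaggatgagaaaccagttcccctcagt
Ifi207: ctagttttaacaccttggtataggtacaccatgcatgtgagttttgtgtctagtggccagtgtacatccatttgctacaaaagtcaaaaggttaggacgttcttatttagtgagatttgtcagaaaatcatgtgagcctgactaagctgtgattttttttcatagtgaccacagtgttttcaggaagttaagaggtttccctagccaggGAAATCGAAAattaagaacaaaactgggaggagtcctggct
Ifi209: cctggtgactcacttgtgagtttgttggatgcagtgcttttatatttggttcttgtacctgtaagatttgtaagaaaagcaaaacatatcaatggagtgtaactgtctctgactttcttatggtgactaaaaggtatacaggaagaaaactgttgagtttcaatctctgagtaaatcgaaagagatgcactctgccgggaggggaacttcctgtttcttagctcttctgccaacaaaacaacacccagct
Aim2: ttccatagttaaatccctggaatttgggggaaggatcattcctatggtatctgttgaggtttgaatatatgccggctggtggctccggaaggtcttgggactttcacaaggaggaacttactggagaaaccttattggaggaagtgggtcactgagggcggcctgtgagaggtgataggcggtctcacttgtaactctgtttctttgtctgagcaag
The exact run GAAATCGAAA was in the promoters of 5 members (Ifi203, Ifi206, Ifi207, Ifi208 and Ifi213), and these letters were chosen after the sequences had been seen. It was in 13 of all 32851 promoters (0.04%), and 7 of those 13 belonged to this gene family, Ifi214 and Mndal included. Counted from 1 at its 5′ end, Ifi205 and Ifi211 differed from it by C6T, and Ifi209 by G1T, 79 bases before its start.

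Per kilobase of annotated exon, Ifi211 and Ifi204 had the highest levels in isotype tumors, at 17.9 ± 2.95 and 13.9 ± 1.32 CPM per kb (SD, n = 5). Ifi207 (10.2 ± 1.2 CPM per kb) and Aim2 (10.0 ± 0.441) followed and differed by less than the SD of either. Ifi209 stood at 6.77 ± 0.366 and Ifi203 at 5.78 ± 0.927 CPM per kb. Ifi206 (2.71 ± 0.456) and Ifi205 (2.41 ± 0.777) again differed by less than their SDs, and Ifi213 (1.37 ± 0.171) and Ifi208 (0.801 ± 0.218) were the lowest. In aPD1 tumors the order began in the same way, with Ifi211 at 53.4 ± 18.4 and Ifi204 at 39.2 ± 12.9 CPM per kb (SD, n = 6). Aim2, however, moved from the fourth place to the seventh, at 11.0 ± 0.92 CPM per kb, beside Ifi206 at 11.8 ± 5.01 and Ifi203 at 12.6 ± 3.15, neighbours that differed by less than the spread of Ifi206. These levels rest on reads that were divided among similar genes, as described below.

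With PD-1 antibody alone, 9 of the 10 genes stood higher than in isotype tumors, by 1.13 to 2.12 on the log2 scale, while Aim2 differed by 0.13. Ifi206 was at 8.93, 10.2, 8.36, 6.5 and 7.48 CPM in the 5 isotype tumors and at 38.1, 19.1, 15.5, 46.2, 43.4 and 53.3 CPM in the 6 aPD1 tumors. The groups did not overlap, and the fitted difference was 2.12 ± 0.35 (log2 fold change ± SE). Ifi213 was at 9.82, 11.1, 9.37, 8.19 and 8.42 CPM in isotype tumors and between 16 and 54.7 CPM in aPD1 tumors, a difference of 1.99 ± 0.30. Ifi208, the member with the lowest expression, lay between 2.95 and 5.73 CPM in isotype tumors and between 6.72 and 29.2 CPM with aPD1, 1.89 ± 0.32 higher. Ifi205 (1.78 ± 0.38), Ifi209 (1.72 ± 0.28), Ifi211 (1.57 ± 0.29) and Ifi204 (1.49 ± 0.26) formed the middle of the range.

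Ifi204, the sensor that signals through STING, was at 48.6, 56.4, 43.3, 50.7 and 49.3 CPM in isotype tumors and at 125.5, 84.8, 94.6, 197.0, 151.8 and 183.5 CPM in aPD1 tumors. Ifi209 was at 22.5, 24.9, 22.7, 25.1 and 24.8 CPM in isotype tumors, against 38.6 to 112.2 CPM with aPD1. Ifi207 and Ifi203 had smaller differences, 1.22 ± 0.20 and 1.13 ± 0.22. Ifi207 was at 33.7, 31.8, 37.2, 31.1 and 41 CPM in isotype tumors and between 50.7 and 113.4 CPM, with a median of 81.7 CPM, in aPD1 tumors.

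Aim2 was at 35.8, 33.7, 35.2, 37.1 and 33.3 CPM in isotype tumors and at 34.2, 42.3, 38.1, 37, 36.5 and 42.1 CPM in aPD1 tumors. The groups overlapped, and the difference was 0.13 ± 0.08, with a 95% interval from -0.02 to 0.28. Over all 42 tumors Aim2 lay between 28.7 and 42.7 CPM. For the other 9 members no aPD1 tumor was as low as the highest isotype tumor, which over all genes held for 3.38%. In edgeR's quasi-likelihood test 6.17% of the 16932 genes tested were called higher in aPD1 tumors at an adjusted p under 0.05. Nothing is read from the members' share here, since the list was made with this contrast in view. The median difference was 1.65 over the members and -0.002 over all genes.

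**Figure D1:**
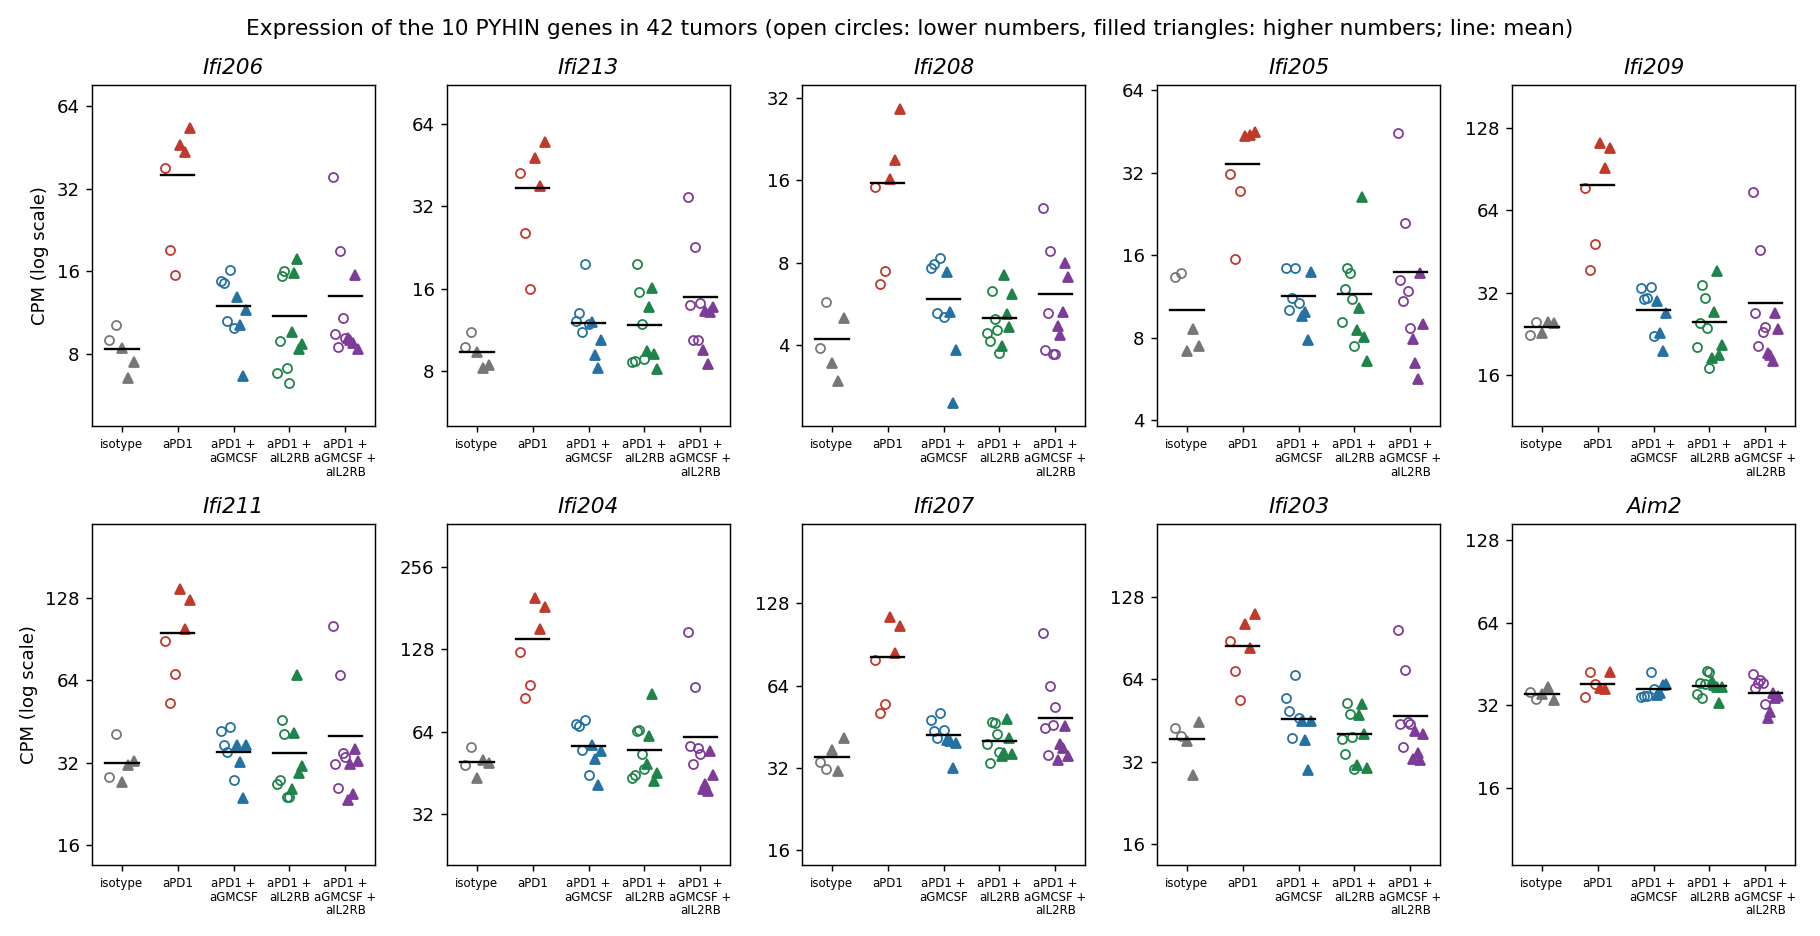
Expression of each PYHIN gene in every tumor, in CPM on a log2 axis that spans the same fold range in every panel, by treatment group. Open circles are tumors with lower replicate numbers, filled triangles those with higher numbers, and lines are group means. The 6 aPD1 tumors lie above all 5 isotype tumors in every panel but that of Aim2, which stays between 28.7 and 42.7 CPM.

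Over all tumors, 9 of the 10 genes were lower when either blocking antibody, or both, was added to the PD-1 antibody. Within the lower replicate numbers alone, 0 were called with aGMCSF or with both, as given below. The test was edgeR's quasi-likelihood test over all 42 tumors with Benjamini-Hochberg adjustment over all 16932 genes within each comparison. All 3 comparisons share the same 6 aPD1 tumors, which also entered the contrast that was in view when the genes were listed, so the 3 counts and their p-values are not independent of each other or of that choice. Lower calls made up 8.75% of all genes with aGMCSF, 14.5% with aIL2RB and 14.3% with both antibodies, against 9 of 10 members each time. The median difference of the members was -1.42 with aGMCSF, -1.52 with aIL2RB and -1.29 with both, beside 0.007, 0.004 and 0.011 over all genes.

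Ifi206 ranged from 6.64 to 16.2 CPM (median 11.5) in aPD1 + aGMCSF tumors, from 6.23 to 17.7 CPM (median 8.91) in aPD1 + aIL2RB tumors and from 8.32 to 35.3 CPM (median 9.11) in aPD1 + aGMCSF + aIL2RB tumors. The lowest aPD1 tumor, at 15.5 CPM, was within all 3 ranges. Relative to aPD1, Ifi206 fell by 1.59 with aGMCSF (log2 scale, edgeR adjusted p = 2.5e-04), by 1.72 with aIL2RB (adjusted p = 4.1e-06) and by 1.48 with both (adjusted p = 4.5e-05). Ifi213 fell as well, with log2 fold changes of -1.64, -1.66 and -1.33 in the same order (edgeR adjusted p = 4.7e-05, 7.0e-07 and 2.5e-05). The changes of Ifi208 were -1.4, -1.64 and -1.36, and those of Ifi205 -1.61, -1.58 and -1.32 (edgeR adjusted p at most 6.2e-04 for both genes).

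Ifi209 lay between 19.6 and 33.6 CPM with aGMCSF and between 17 and 38.4 CPM with aIL2RB, in each case below the lowest aPD1 tumor at 38.6 CPM. With both antibodies it reached 74.5 CPM. The changes were -1.51 ± 0.23, -1.67 ± 0.22 and -1.45 ± 0.22 (log2 fold change ± SE; edgeR adjusted p = 8.3e-05, 4.8e-07 and 5.0e-06). Ifi204 lay between 40.9 and 70.6 CPM with aGMCSF, between 42.5 and 87.7 CPM with aIL2RB and between 39 and 148.2 CPM with both. Its changes were -1.3, -1.35 and -1.19, and those of Ifi211 were -1.44, -1.45 and -1.25. The smallest changes among the 9 were those of Ifi207 (-0.95, -1.02 and -0.75) and Ifi203 (-0.88, -1.07 and -0.86), and all of these were called (edgeR adjusted p at most 0.0014).

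Aim2 was at a median of 35.3 CPM with aGMCSF (34.3 to 42.1), 38 CPM with aIL2RB (32.6 to 42.7) and 35.4 CPM with both (28.7 to 41.5), against 37.6 CPM with aPD1 alone. Its differences from aPD1 were -0.07 (95% interval -0.20 to 0.06, edgeR adjusted p = 0.53), -0.03 (-0.15 to 0.10, adjusted p = 0.81) and -0.12 (-0.24 to 0.01, adjusted p = 0.19). Each interval ends short of the falls of the other members.

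Groups that did not overlap at all were fewer. With aGMCSF, every tumor lay below every aPD1 tumor for Ifi204, Ifi205, Ifi209 and Ifi211, 4 of 10 members beside 2.2% of all genes. With aIL2RB this held for Ifi203, Ifi207 and Ifi209, 3 of 10 beside 2.99%. With both antibodies it held for 0 of 10, beside 0.827%, with 2 to 7 tumors of the group at or above the lowest aPD1 tumor for each member.

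**Figure D2:**
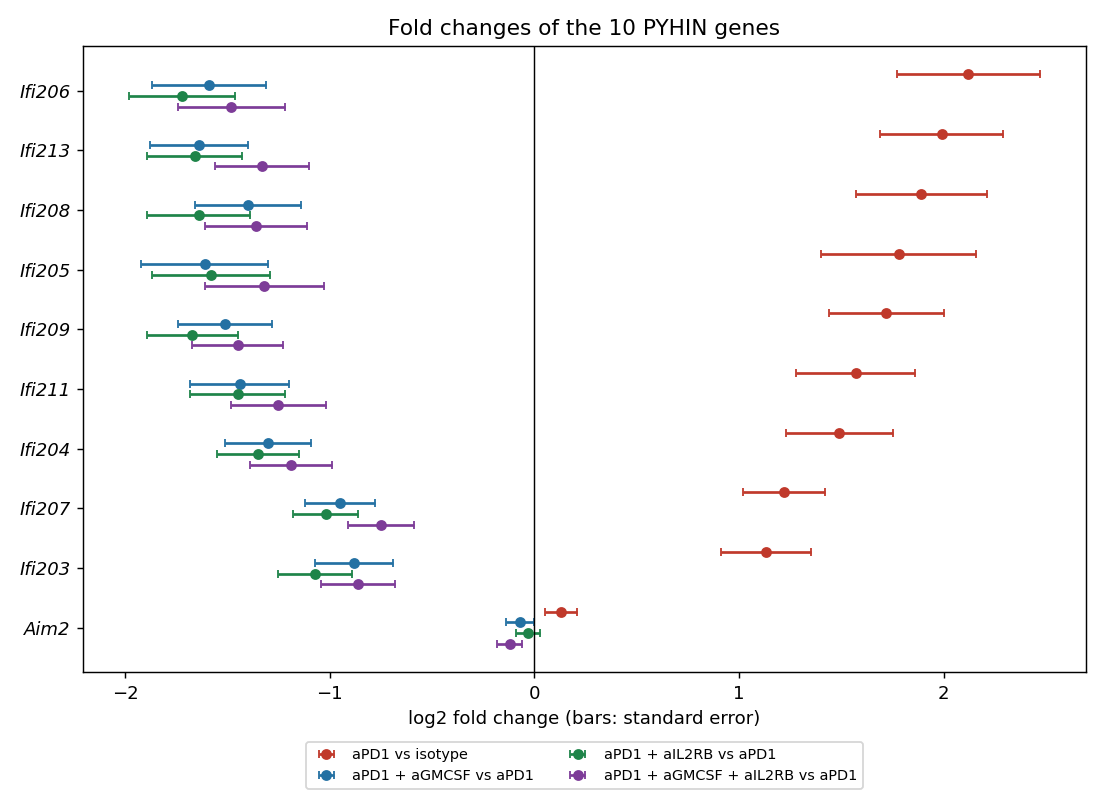
Log2 fold change of each gene, with bars of 1 standard error, for aPD1 against isotype and for each blockade group against aPD1 (edgeR, all 42 tumors). For each gene but Aim2 the aPD1 estimate lies to the right of 0, from 1.13 to 2.12, and the 3 blockade estimates, which share the aPD1 tumors, lie close together on the left.

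Single tumors stood apart in these groups, and they did so across the family. In aPD1 + aGMCSF + aIL2RB, replicate 1 was the highest tumor for all 10 members and replicate 4, the shallowest library, the second highest. Replicate 1 held 35.3 CPM of Ifi206, 148.2 of Ifi204, 101.4 of Ifi211 and 44.6 of Ifi205, all within the range of the aPD1 tumors. Its macrophage, leukocyte and T and NK cell marker sums, 3984, 1153 and 63.0 CPM, were also the highest of the group, and replicate 4 was second in each, at 3089, 774.2 and 25.3 CPM. With both tumors left out, an alternative added after the data were seen, 10 members were called lower than in aPD1, beside 16.2% of all genes, with Aim2 at -0.16 and a median of -1.63. Leaving out the highest tumors lowers the group by construction, so nothing is read from the larger fall.

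In aPD1 + aGMCSF, replicate 4 was the highest tumor for all 10 members. In aPD1 + aIL2RB, replicate 9 was the highest for 6, with 87.7 CPM of Ifi204, 66.9 of Ifi211, 26.1 of Ifi205 and 17.7 of Ifi206. Its leukocyte marker sum was the highest of that group, at 754.5 CPM, while its macrophage sum, 2540 CPM, ranked 8 of 11. Among aPD1 tumors, replicates 2 and 3 were each the lowest or second lowest for 9 members. They were also the lowest and second lowest of the group in the macrophage (3126 and 3591 CPM), leukocyte (779.3 and 836.3 CPM) and T and NK cell marker sums (64.1 and 69.1 CPM). The part of cell content in these values was not tested.

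**Figure D3:**
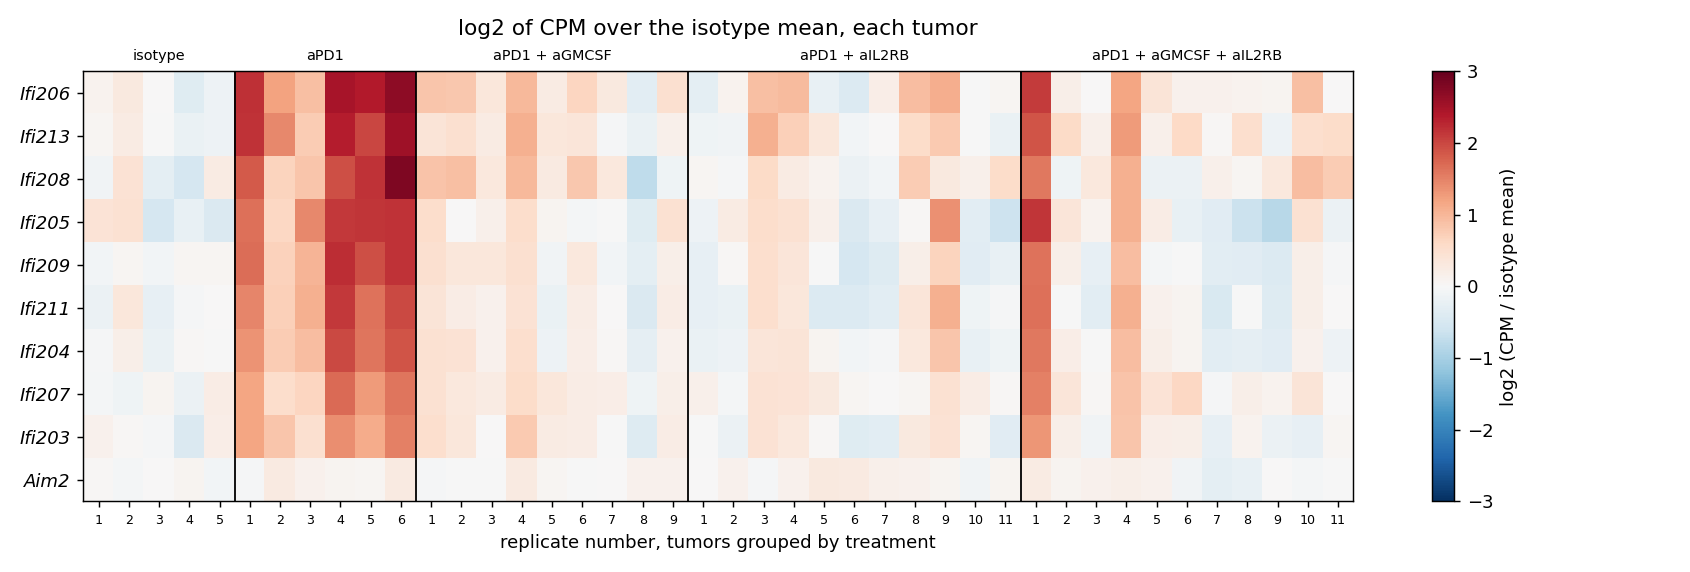
Log2 of the CPM in each tumor over the mean of the isotype group, for the 10 genes (rows) in all 42 tumors (columns, by treatment and replicate number). The 6 aPD1 columns and aPD1 + aGMCSF + aIL2RB replicates 1 and 4 are red from Ifi206 down to Ifi203, and the row of Aim2 stays pale throughout.

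The comparisons of the blockade groups with isotype do not involve the aPD1 tumors. They share the same 5 isotype tumors, which were part of the contrast in view when the genes were listed, so the sign of the differences is not independent of that choice or between the 3. No member was called in any of them by edgeR with group as the only term. With aGMCSF the median difference was 0.23 (range 0.06 to 0.52), 0 members had an unadjusted p under 0.05 and DESeq2 called 0. Over all genes 0% were called, with 5.54% at an unadjusted p under 0.05. With aIL2RB the median was 0.17 (0.05 to 0.40), again with 0 members at an unadjusted p under 0.05 and 0 by DESeq2, beside 3.2% of all genes called.

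With both antibodies the median difference from isotype was 0.39 (range 0.02 to 0.66), and 10.2% of all genes were called. Of the members, 3 had an unadjusted p under 0.05. Ifi213 was 0.66 above isotype (95% interval 0.14 to 1.18, edgeR adjusted p = 0.097), Ifi206 0.63 above (0.03 to 1.24, adjusted p = 0.18) and Ifi207 0.47 above (0.13 to 0.82, adjusted p = 0.078). DESeq2 called 1 of 10 members, Ifi207 (adjusted p = 0.046), a share near the 13.3% of all genes it called. Without replicate 1 of this group the median was 0.09, and without replicates 1 and 4 it was -0.01. These tumors were the highest and second highest of the group for every member. Leaving them out lowers the group by construction, and nothing is read from the change.

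No member was called between blockade groups. Between aPD1 + aIL2RB and aPD1 + aGMCSF, edgeR and DESeq2 each called 0 members, 0 had an unadjusted p under 0.05, and 1.52% of all genes were called. Ifi206 differed by -0.13 (95% interval -0.61 to 0.36), Ifi204 by -0.05 (-0.41 to 0.32) and Ifi207 by -0.07 (-0.36 to 0.21). In the same comparison 7 of 8 T and NK cell markers were lower with aIL2RB. Between both antibodies and aGMCSF alone, 0 members and 2.13% of all genes were called, with Ifi206 at 0.11 (-0.37 to 0.60). Between both antibodies and aIL2RB alone, 0 members and 0.00591% of all genes were called, with Ifi206 at 0.24 (-0.22 to 0.70). DESeq2 called 0 members in these comparisons too, and 0 members had an unadjusted p under 0.05.

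The members are similar in sequence, and the expected counts divide reads that match several genes. Of the stretches of 50 bases in their transcripts, 72.8% were shared with another gene of the family for Ifi211, 33.4% for Ifi209, 25.6% for Ifi206 and 5.4% for Ifi207, and 0% for Aim2. Counts of Ifi207 and Aim2 were whole numbers, within 0.001, in all 42 tumors, so these genes took no divided reads. The others became whole, within 0.15, only when summed in 3 pools. The first holds Ifi203, Ifi204, Ifi205 and Ifi211 with Mndal and Ifi203-ps, the second Ifi209 with Ifi214, and the third Ifi206, Ifi208 and Ifi213 with Gm18752.

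Summed in this way, which removes any effect of the division, the pool of Ifi206 was at 21.9 ± 3.39 CPM in isotype (SD, n = 5) and 89.0 ± 36.9 CPM in aPD1 tumors (n = 6). It stood at 29.8 ± 7.83 CPM with aGMCSF (n = 9), 27.8 ± 8.6 CPM with aIL2RB and 34.1 ± 18 CPM with both (n = 11 each). Relative to aPD1 the changes of this pool were -1.58, -1.68 and -1.39 (edgeR adjusted p = 8.3e-05, 7.6e-07 and 1.7e-05). The changes were -1.55, -1.71 and -1.47 for the pool of Ifi209 and -1.18, -1.26 and -1.1 for the pool of Ifi204, all called (edgeR adjusted p at most 2.0e-04). The 3 related genes outside the list that could be tested moved in the same direction. Ifi214 was 2.81 above isotype with aPD1 and changed by -2.39, -2.6 and -1.82 under the 3 blockades, Mndal by -0.9, -0.98 and -0.99, and Ifi203-ps by -0.75, -0.94 and -0.7, each called by edgeR. Ifi202b reached 0.174 CPM at most and was not tested.

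Ratios taken within a tumor cancel the scaling between libraries, and were compared between groups by exact two-sided permutation tests, with p-values adjusted over 21 tests. All 21 tests share the aPD1 tumors, which were in the contrast in view when the genes were listed. Their p-values are therefore not independent of each other or of that choice. The ratio of Ifi207 to Aim2, the members without divided reads, had a median of 0.943 in isotype, 2.31 in aPD1, 1.19 in aPD1 + aGMCSF, 0.998 in aPD1 + aIL2RB and 1.21 in aPD1 + aGMCSF + aIL2RB tumors. On the log2 scale its differences from aPD1 under the 3 blockades were -0.82, -0.94 and -0.63 (exact permutation test, adjusted p = 0.0021, 0.0017 and 0.016). The pool of Ifi206 relative to Ifi207 differed by -0.6, -0.65 and -0.63 (adjusted p = 0.0031, 0.0035 and 0.0014, exact permutation test). The pool of Ifi209 relative to Ifi207 differed by -0.58, -0.68 and -0.75 (adjusted p = 0.0014, 0.0014 and 8.5e-04, exact permutation test). The pool of Ifi204 relative to Ifi207 differed by -0.25, -0.27 and -0.39 (adjusted p = 0.0021, 0.016 and 8.5e-04, exact permutation test). The pools of Ifi206 and Ifi209 did not differ from each other beyond the spread, by -0.03, 0.04 and 0.12 (adjusted p = 0.81, 0.75 and 0.23, exact permutation test). Relative to the pool of Ifi204, the pool of Ifi209 differed by -0.32, -0.41 and -0.36 (adjusted p = 0.0035, 0.0014 and 0.0021, exact permutation test). For the pool of Ifi206 relative to that of Ifi204 the differences were -0.35, -0.38 and -0.24 (adjusted p = 0.016, 0.0098 and 0.065, exact permutation test), so that the last, with both antibodies, did not pass.

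Of 12 inflammasome genes, 9 were lower than in aPD1 with aGMCSF, 9 with aIL2RB and 11 with both. Lower calls made up 8.75%, 14.5% and 14.3% of all genes. The adaptor gene Pycard fell by 1.17 with aIL2RB (edgeR adjusted p = 4.3e-07), as did Mefv, which encodes pyrin (adjusted p = 0.001), while the sensor genes Nlrp3 and Nlrc4 fell, with differences of -1.0 and -0.86 (edgeR adjusted p = 2.4e-04 and 9.3e-05). Casp1 and Cgas are named for their roles, after their values had been seen, and Casp1 fell by 0.30 (edgeR adjusted p = 0.011). Of 10 genes of cytosolic DNA sensing tested, 5, 6 and 6 were lower, and the others, Irf3, Tbk1 and Ddx41 among them, were not called with aIL2RB. With aIL2RB the kinase gene Ikbke fell by 1.17, Samhd1 by 0.96, the exonuclease gene Trex1 by 0.95 and Zbp1 by 0.90, whereas Cgas, the other main DNA sensor, differed by -0.18 (edgeR adjusted p = 0.075). Of 15 genes of interferon signaling tested, 9, 10 and 11 were lower. Ifng fell by 2.28 with aIL2RB (edgeR adjusted p = 6.8e-04), Irf7 by 1.41 and Irf8 by 0.91. The median differences with aIL2RB were -0.56 for the inflammasome list, -0.54 for DNA sensing and -0.33 for interferon signaling, against -1.52 for the members.

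Macrophage and general leukocyte markers fell in the same comparisons as the members. Of 10 macrophage genes, 8 were lower than in aPD1 in each comparison, and with aIL2RB C1qb fell by 1.00 and Adgre1, which encodes F4/80, by 0.97. The summed macrophage genes ranged from 2697 to 3242 CPM in isotype, 3126 to 6007 in aPD1, 2392 to 2873 in aPD1 + aGMCSF, 2222 to 3188 in aPD1 + aIL2RB and 1891 to 3984 CPM in aPD1 + aGMCSF + aIL2RB tumors. All 5 general leukocyte genes were lower in each comparison, with Ptprc, which encodes CD45, down by 1.29 with aIL2RB. Their sum ranged from 574.1 to 681.3 CPM in isotype, 779.3 to 1468 in aPD1, 557.0 to 750.1 with aGMCSF, 412.1 to 754.5 with aIL2RB and 369.0 to 1153 CPM with both. Of 8 T and NK cell markers, 1 was lower than in aPD1 with aGMCSF, 7 with aIL2RB and 8 with both. They summed to 37.3 to 54.0 CPM in isotype, 64.1 to 130.7 in aPD1, 25.9 to 69.8 with aGMCSF, 2.77 to 28.8 with aIL2RB and 0.616 to 63.0 CPM with both, and the NK cell gene Ncr1 was at 0 in every aPD1 + aIL2RB tumor. In the same order, 1, 3 and 3 of 4 markers of type 1 dendritic cells were lower than in aPD1, 1, 1 and 1 of 4 of type 2 dendritic cells, 2, 1 and 1 of 4 of plasmacytoid dendritic cells, 0, 3 and 2 of 5 of B cells, and 3, 1 and 2 of 4 of granulocytes. Of 5 fibroblast genes, 0, 2 and 2 were higher than in aPD1 and 2, 3 and 1 were lower. With aIL2RB, Postn fell by 0.71 and Bgn by 0.68, while Col3a1 was 0.94 and Pdgfra 0.81 higher (edgeR adjusted p at most 0.001). The sum of these genes ranged from 1864 to 4296 CPM in isotype, 2684 to 3385 in aPD1, 2842 to 4043 with aGMCSF, 3248 to 5123 with aIL2RB and 3766 to 5292 CPM with both. Of 5 genes that carry ribosomal RNA reads, 0, 0 and 1 were lower, the last being Gm42418 with both antibodies (-0.91, edgeR adjusted p = 0.033). Their median differences were 1.03 for aPD1 against isotype and -0.72, -0.75 and -0.69 for the blockades against aPD1. Their sum ranged from 16314 to 87439 CPM in isotype, 44999 to 203798 in aPD1, 29518 to 113440 with aGMCSF, 32770 to 126191 with aIL2RB and 27032 to 131301 CPM with both. The part of these cells and of ribosomal RNA in the members' falls was not tested.

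As a description, each member was also expressed relative to the mean log2 CPM of the macrophage list, of the leukocyte list, or to Ptprc alone. Relative to macrophage genes, Ifi206 was 1.41 higher in aPD1 than in isotype tumors, and its differences from aPD1 were -0.88, -0.99 and -0.78 under aGMCSF, aIL2RB and both. Relative to Ptprc the same differences for Ifi206 were 1.05 for aPD1 over isotype, and -0.70 and -0.39 for aGMCSF and aIL2RB against aPD1. Ifi207 and Ifi203 did not keep a direction with aIL2RB: against aPD1 they were -0.29 and -0.38 relative to macrophage genes, 0.11 and 0.02 relative to the leukocyte list, and 0.31 and 0.22 relative to Ptprc. Aim2 went the other way from the rest relative to macrophage genes, at -0.44 for aPD1 against isotype and 0.65 for aIL2RB against aPD1.

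**Figure D4:**
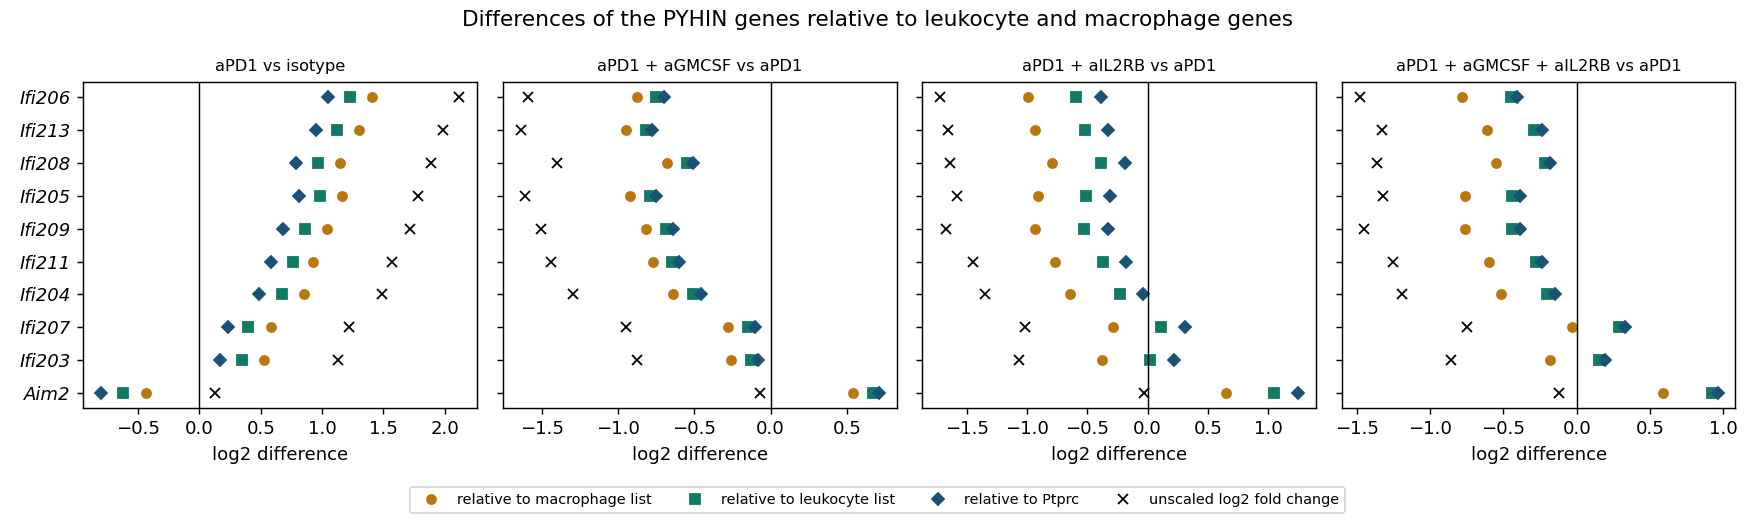
Differences of each gene, in log2 units, before scaling (crosses) and relative to the macrophage list (circles), the leukocyte list (squares) and Ptprc (diamonds), for the 4 comparisons. The scaled values of Ifi206 to Ifi204 stay on the side of the unscaled ones, Ifi207 and Ifi203 cross 0 in the panels with aIL2RB, and Aim2 lies on the opposite side.

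Estimates of the differences that involve aPD1 tumors were larger among tumors with the higher replicate numbers. Of the 3 blockades against aPD1, the test of that change, given below, called members only with both antibodies. Averaged over treatments, 0 members differed between the sets of numbers in edgeR (lowest adjusted p = 0.20), while 25.1% of all genes did. Among aPD1 tumors, Ifi206 was at 38.1, 19.1 and 15.5 CPM in those with lower numbers and at 46.2, 43.4 and 53.3 CPM in those with higher numbers, and Ifi204 at 125.5, 84.8 and 94.6 against 197.0, 151.8 and 183.5 CPM. The median difference of the members between aPD1 and isotype, given without a test, was 0.98 within the lower and 2.06 within the higher numbers. Within the higher numbers, 9 members were called in each single blockade against aPD1, and 10 with both. The share of all genes called there was 16.4% with aGMCSF, 22% with aIL2RB and 29.6% with both, and the members' medians were -1.99, -1.78 and -2.03. Within the lower numbers, 8 members were called with aIL2RB and 0 with aGMCSF or both, beside 15.6%, 0.155% and 5.37% of all genes. Each set holds 3 aPD1 tumors. The members' medians there were -1.09 with aIL2RB, -0.79 with aGMCSF and -0.48 with both.

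The test of the difference between the sets themselves called 8 members in aPD1 + aGMCSF + aIL2RB against aPD1, beside 6.55% of all genes in that direction. Going from lower to higher numbers the log2 fold change moved by -1.6 for Ifi204 (edgeR adjusted p = 0.0033) and by -1.28 for Ifi207 (adjusted p = 0.0024). Without aPD1 + aGMCSF + aIL2RB replicate 1, which belongs to the lower numbers, 4 members were called, Ifi204, Ifi205, Ifi207 and Ifi209, beside 4.72% of all genes. For aGMCSF and for aIL2RB against aPD1, 0 members were called by edgeR, beside 0.00591% and 0.1% of all genes.

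**Figure D5:**
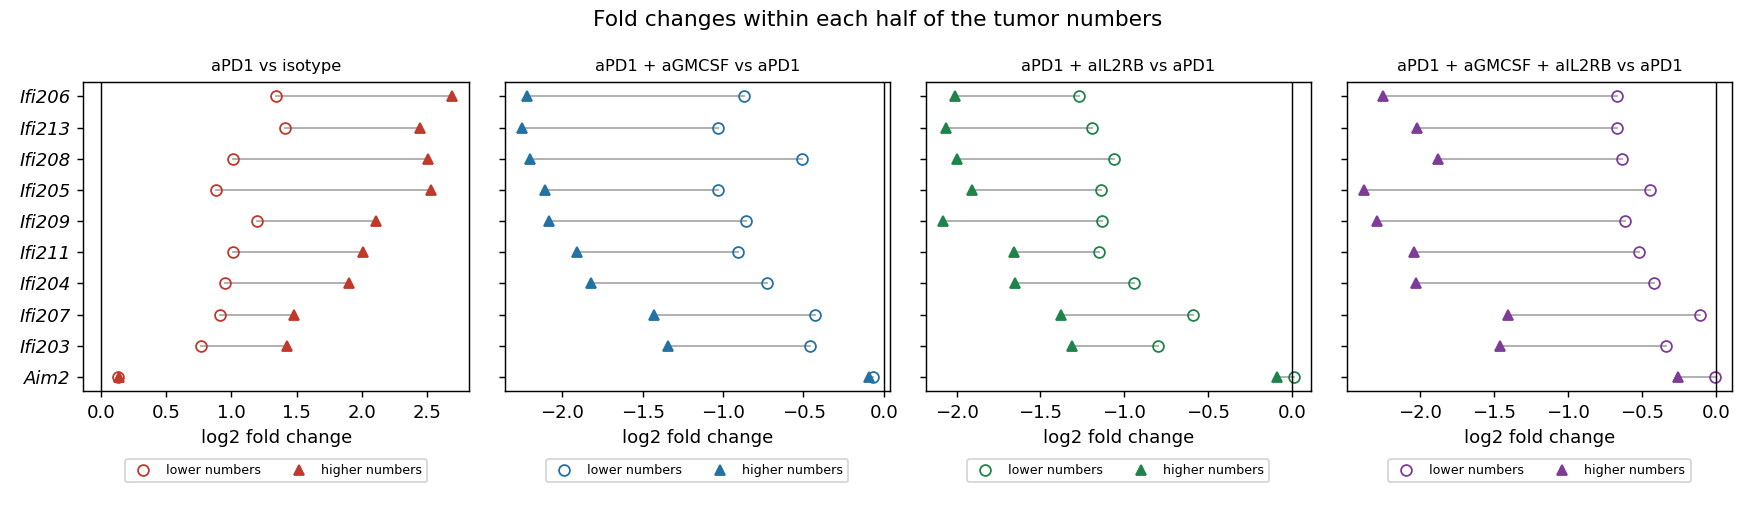
Log2 fold change of each gene within the tumors of lower (open circles) and higher (triangles) replicate numbers, for the 4 comparisons. The triangles lie farther from 0 than the circles for the 9 genes above Aim2 in every panel, and Aim2 stays near 0.

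Within the treatment groups the members varied together, apart from Aim2. After subtraction of group means, Pearson's r between the 9 other members ranged from 0.57 to 0.96 with a median of 0.84 over 36 pairs, and the 27 pairs in different read pools had the same range and median. Aim2 correlated with each of them at 0.03 to 0.33. These are descriptions over 42 tumors that share their scaling. Of 12432 other genes ranked by their correlation with the mean of the 10 members, the nearest was Slfn1, a Schlafen gene, at r = 0.95 (rho = 0.92), followed by Mndal at 0.93, Lgals3bp at 0.92, Samhd1 at 0.91, the interferon regulatory factor gene Irf7 at 0.91, Themis2 and Ms4a4c at 0.90, and Stat2, Gm8995 and Oas3 at 0.89. Without aPD1 + aGMCSF + aIL2RB replicates 1 and 4, the tumors farthest from the median, these were 0.82 to 0.92. The median over all ranked genes was -0.07, and 144 genes were over 0.8. Ptprc was at 0.85, Irf1 at 0.72, Adgre1 at 0.70 and Cd8a at 0.62.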

How the data were processed

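Poly(A) RNA was sequenced from 42 MC38 tumors of 5 treatment groups. The authors aligned reads with Bowtie 1.2.3 to transcriptomes of the Collaborative Cross founders, built from GRCm38 and GENCODE, and quantified the alignments, put into EMASE format, over the founder haplotypes with gbrs, which allows for reads that match several of them. The deposited table holds the resulting expected counts per gene, not normalized. Here they were rounded and fitted with edgeR 4.0.16 (R 4.3.3): TMM scaling, filterByExpr with a minimum count of 10 and total of 15, and the quasi-likelihood test with group as the only term over all 42 tumors. Intervals are 1.96 SE. DESeq2, the tool the authors used, was an alternative (run here as version 1.42.0). Ratios were compared by exact permutation tests in Python 3.11.15. Genome spans come from a GENCODE annotation of GRCm38, and promoters from RefSeq. The scripts were tested on simulated data. The members and all gene lists were chosen with earlier results of these data known, and named genes are all members, up to 4 called genes per list with the largest change with aIL2RB, those a result turned on, and the 10 most like the family. A gene of these lists and 1 further promoter motif that was searched are not reported here. Lists of 5 to 16 genes stood for cell types and pathways. Of 861 pairs of tumors 0 had identical values. The log2 CPM used for the correlations has a prior count of 2, and fold changes use the default of edgeR. Total counts of 7155486 to 24101674 per tumor set the precision.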

Additional observations from a re-analysis of the deposited data

Results flagged for a closer look

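In aPD1 + aGMCSF, replicate 4 stood apart from the other tumors of its group, relative to the group's range, for Ifi213, at 19.7 CPM against 13 CPM in the next, and for Aim2, at 42.1 CPM against 38.2 CPM. Of 30 checks of a member in a group of 4 to 10 tumors, 2 found such a tumor, and chance gives about 1 in 20.

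The fall from aPD1 to aPD1 + aGMCSF + aIL2RB differed between tumors of higher and lower replicate numbers. The further change among the higher numbers, on the log2 scale, was -1.11 for Ifi203, -1.6 for Ifi204, -1.92 for Ifi205, -1.56 for Ifi206, -1.28 for Ifi207, -1.65 for Ifi209, -1.51 for Ifi211 and -1.34 for Ifi213 (edgeR adjusted p at most 0.043 for these 8 genes). Without replicate 1 of the blockade group, 4 of these were still called. The labels do not say what the numbers stand for, and the cause was not tested.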

How the results depend on the processing

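In the 3 comparisons of blockade groups with aPD1, 9 members were called under every setting that kept tumors of both number sets, and with 1 tumor left out at a time, except that 10 were called with aPD1 + aGMCSF + aIL2RB replicates 1 and 4 left out together. Those tumors were the highest of their group, so leaving them out lowers it by construction. Within the lower numbers 0 were called for aGMCSF and for both antibodies against aPD1. The count was also 0 there for aPD1 against isotype, from which nothing is read. The small difference of Aim2 between aPD1 + aIL2RB and aPD1 changed sign: it was 0.04 with scaling by library size alone, 0.02 with the replicate number as a block, 0.01 within the lower numbers, and -0.06 to 0.0 with 1 tumor left out. For both antibodies against isotype, 1 member was called by DESeq2 and 2 with the replicate block, Ifi207 and Ifi213 (adjusted p = 0.015 and 0.036), against 0 without it. These shares of the 10 members are near those of all genes in that comparison, 13.3% by DESeq2 and 23.3% with the block. Same-numbered tumors of different groups did not deviate together (median r 0.03 over 67 pairs, 20 over 0.1), so the block pairs nothing known, and it changed no other count of members. Without aPD1 + aGMCSF + aIL2RB replicate 1 the difference between number sets was called for 4 members in place of 8. The median correlation of the 10 genes most like the family was 0.75 when only the 3 members with the least divided reads were averaged. Of the 10 genes, 2 were kept. Aim2 is among these 3 members and weighs more in their mean, with which its r was 0.71 against 0.37 with all 10. The part of the divided reads alone was therefore not tested. The median of the members for aPD1 + aIL2RB minus aPD1 was -0.78 relative to macrophage genes, -0.38 relative to the leukocyte list and -0.18 relative to Ptprc. Ifi213 was not whole in 16 tumors at a tolerance of 0.001, and in 8 at 0.15. Of 937 values with 1 tumor left out, 931 kept their direction and their side of the threshold or moved by less than the spread, as did 828 of 929 values under the other settings, where 101 did not. The cause of these changes was not tested. Ifi208, at 2.47 CPM in its lowest tumor, has the least depth.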

Other observations

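Cadm3, an adhesion molecule gene whose annotated span overlaps that of Aim2 on the opposite strand, was called higher in aPD1 than in isotype tumors by 1.76 ± 0.50 (edgeR adjusted p = 0.022). It fell by 1.34 with aIL2RB (edgeR adjusted p = 0.0078) and by 1.22 with both antibodies (adjusted p = 0.016), and differed by -1.11 with aGMCSF (adjusted p = 0.063). It was looked at after the members' values had been seen.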
